A study of Mus musculus with 6 samples.

Results

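The genes described here are 9 genes of the neural lineage: the neurofilament subunits Nefl, Nefm, Nefh and Ina, the precursor filament genes Nes and Vim, the transcription factor genes Sox1 and Pax6, and the neuronal tubulin gene Tubb3. They are 9 of the 24421 genes in the deposited table and were picked by symbol; the set was selected on the knockout and wild-type values themselves, since it was proposed with that difference already known. Their differences between the groups are therefore given as a description; where a call at a threshold is counted for them, it is set beside the share of all genes called and is no test of the set. Polyadenylated RNA was sequenced from E14 mouse embryonic stem cells, in 3 Pml-/- libraries and 3 wild-type libraries. Cells of both genotypes were grown in medium with serum, leukemia inhibitory factor, the GSK3 inhibitor CHIR99021 and the MEK inhibitor PD0325901. The protein made from Pml builds PML nuclear bodies, and the comparison addresses how transcript levels differ without an intact Pml gene. The names of the 3 knockout columns share the prefix KO34, as those of 1 line would, and nothing says that the replicates of a group came from separate cultures, so the errors given describe how these 6 libraries scattered and may be technical in origin.

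Neurofilaments are the intermediate filaments of axons, built as mixed polymers of a light chain (Nefl), a medium chain (Nefm) and a heavy chain (Nefh), with alpha-internexin (Ina) as a further partner in the central nervous system. Dividing neural precursors carry other intermediate filaments, made of vimentin (Vim) and nestin (Nes). Sox1 marks the early neural plate, Pax6 specifies forebrain and eye progenitors, and Tubb3 encodes the beta-tubulin class typical of neurons. Embryonic stem cells held in a naive state are not neural, and transcripts of this lineage are usually low in them.

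The libraries held between 5845653 and 8693079 counted reads in knockout cells and between 9389186 and 11046725 in wild-type cells. Levels are in CPM, read counts scaled to the total of their library. Pml itself stood at 76.3 ± 0.912 CPM in knockout cells and 191 ± 4.09 CPM in wild-type cells (SD, n = 3 each); the labels do not say which part of the gene was disrupted. All 10 embryonic stem cell markers of a fixed list were abundant in both groups, with a summed level of 8437 to 8596 CPM in knockout libraries and 8129 to 8294 CPM in wild-type libraries. Of these markers 3 rose, the transcription factor genes Klf4 and Tfcp2l1 by 0.22 and 0.18 and Tdgf1, a Nodal co-receptor gene, by 0.35 (log2, knockout over wild type), and 7 did not pass the test; their part in the differences below was not tested. Of 6 tested genes on chromosome Y, 5 were lower in the knockout libraries, and whether that belongs to the loss of Pml or to the line cannot be told apart.

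The promoter windows of 5 of the 9 genes are shown because the levels of 4 of them (Nes, Vim, Tubb3 and Sox1) were lower together while that of Ina overlapped between the groups. Each window runs from 250 bases before to 50 bases after the start of the RefSeq gene (GRCm38.p6, the mm10 build), and 6 of the 9 genes had a window, these and Pax6, which had 2. Capitals mark matches on either strand to TATAAA, the box of many regulated core promoters, to GGGCGG, the site of Sp factors, to CCAAT, bound by NF-Y, or to GGACAG, one end of the element of the neural repressor REST. No matches overlapped. The windows are on the plus strand, 5′ to 3′.
Nes, chr3:87970843-87971142: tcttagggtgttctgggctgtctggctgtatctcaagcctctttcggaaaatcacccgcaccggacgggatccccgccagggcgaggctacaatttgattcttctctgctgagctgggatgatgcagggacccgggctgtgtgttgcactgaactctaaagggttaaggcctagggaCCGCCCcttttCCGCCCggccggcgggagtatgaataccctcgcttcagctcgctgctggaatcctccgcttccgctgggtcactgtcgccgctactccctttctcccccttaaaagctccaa
Vim, chr2:13574061-13574360: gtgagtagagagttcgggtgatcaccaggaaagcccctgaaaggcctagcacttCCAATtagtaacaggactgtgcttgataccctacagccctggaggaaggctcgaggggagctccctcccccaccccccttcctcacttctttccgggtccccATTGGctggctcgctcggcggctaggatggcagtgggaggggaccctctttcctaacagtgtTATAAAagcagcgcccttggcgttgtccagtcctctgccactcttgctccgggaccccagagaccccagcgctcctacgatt
Tubb3, chr8:123411303-123411602: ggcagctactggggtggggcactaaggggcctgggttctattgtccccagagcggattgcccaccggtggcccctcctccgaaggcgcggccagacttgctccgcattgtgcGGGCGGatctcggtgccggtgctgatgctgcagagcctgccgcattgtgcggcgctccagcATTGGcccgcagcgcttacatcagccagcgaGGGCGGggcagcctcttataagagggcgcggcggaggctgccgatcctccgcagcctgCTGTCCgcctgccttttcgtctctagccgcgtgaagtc
Sox1, chr8:12395269-12395568: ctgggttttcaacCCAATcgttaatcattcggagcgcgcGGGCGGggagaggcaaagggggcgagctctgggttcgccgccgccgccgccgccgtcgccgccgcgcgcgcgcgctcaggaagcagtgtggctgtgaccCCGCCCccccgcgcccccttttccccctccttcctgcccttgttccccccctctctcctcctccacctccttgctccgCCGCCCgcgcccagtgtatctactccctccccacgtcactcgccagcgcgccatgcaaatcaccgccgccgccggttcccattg
Ina, chr19:47014431-47014730: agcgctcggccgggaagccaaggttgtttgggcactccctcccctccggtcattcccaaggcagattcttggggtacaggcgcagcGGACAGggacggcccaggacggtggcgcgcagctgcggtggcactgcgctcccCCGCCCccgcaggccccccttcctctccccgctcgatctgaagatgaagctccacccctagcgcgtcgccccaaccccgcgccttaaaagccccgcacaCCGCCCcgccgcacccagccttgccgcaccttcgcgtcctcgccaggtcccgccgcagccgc

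Of the 4 windows of genes with lower levels, 3 held GGGCGG (Nes at 2 places, Sox1 at 3 and Tubb3 at 2) and 3 held CCAAT (Vim at 2 places, Sox1 and Tubb3 at 1 each). Vim alone of the 4 had TATAAA, 32 bases before the start. Ina held GGGCGG at 2 places and no CCAAT. Over all 32851 RefSeq windows, 13.6% held TATAAA, 35.7% GGGCGG, 37.4% CCAAT and 22.2% GGACAG. The other end of the REST element, TTCAGCACC, was in 0.371% of all windows and in none of those of the 6 genes; GGACAG was found in Tubb3 and Ina. CpG dinucleotides numbered 18 in Nes, 11 in Vim, 26 in Tubb3, 37 in Sox1 and 32 in Ina, against a median of 7 over all windows, so the genes with lower levels and Ina were alike in being above it.

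In the knockout, 7 of the 9 genes had lower levels in every library than in any wild-type library: Nefl, Nefm, Nefh, Nes, Vim, Sox1 and Tubb3. Ina overlapped between the groups, and Pax6 was near 0 throughout. The largest differences were those of the medium and light neurofilament chains. Log2 fold changes are given as knockout over wild type and are differences of log2(CPM + 1), a scale that shrinks changes of weakly expressed genes. They come from a limma fit to all 12435 genes with enough reads; 8 of the 9 genes were among them, and Pax6 was not. In that fit the same 7 genes were called lower at an adjusted p under 0.05 and 0 were called higher (0 also at an unadjusted p under 0.05, by edgeR and by DESeq2), where 7.49% of all tested genes were called lower and 6.54% higher. Groups that do not overlap, with the knockout lower, occurred in 15.0% of all tested genes. Because the set was proposed from this difference, its counts support nothing beyond the values themselves.

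**Figure D1:**
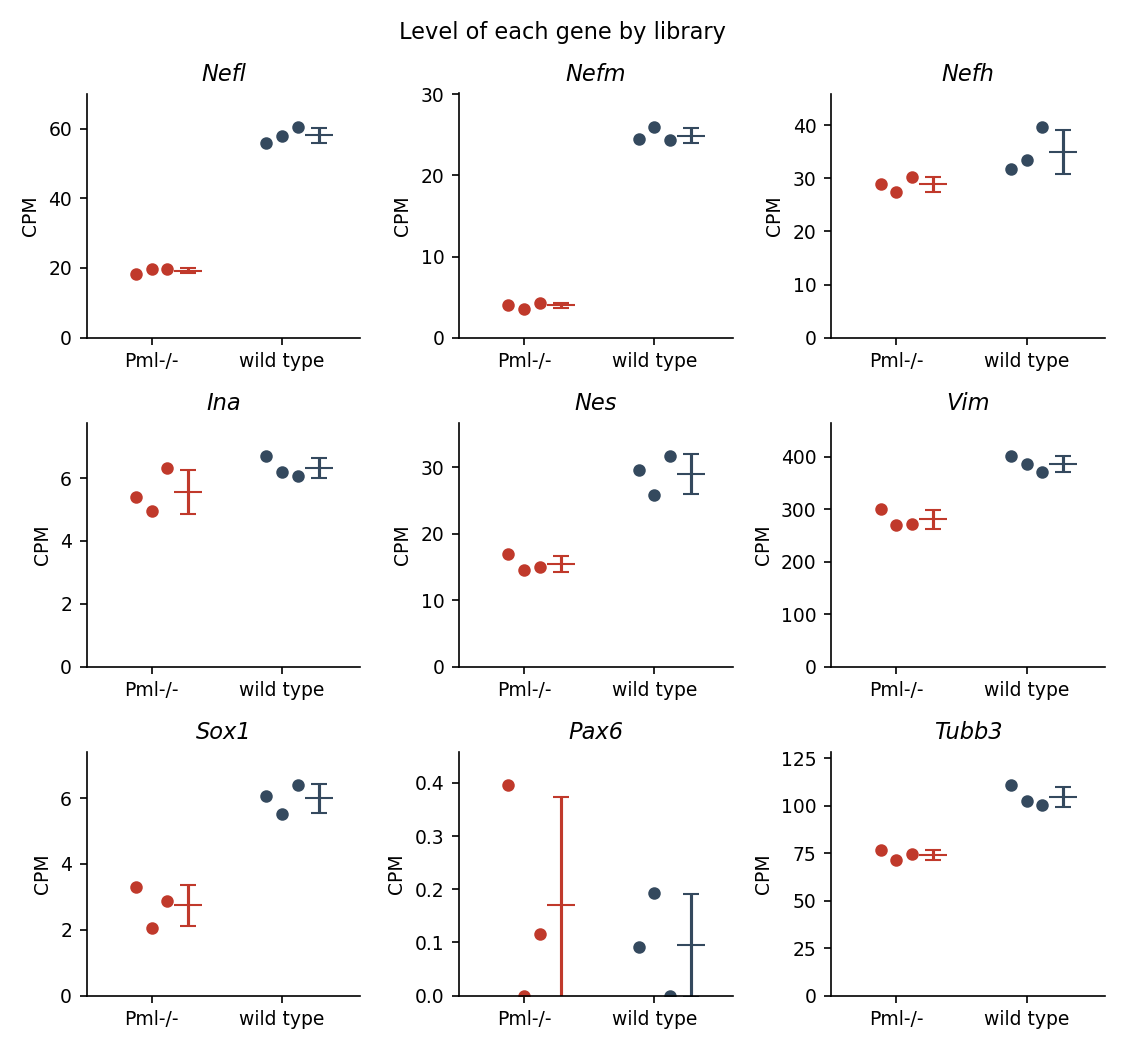
Level of each of the 9 genes in CPM (vertical axes, each starting at 0) in the 3 Pml-/- libraries (red) and the 3 wild-type libraries (dark blue); points are libraries, and the bar beside them is the mean with its SD, cut off at 0. In 7 panels all red points lie below all blue points, while those of Ina and Pax6 overlap.

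Among the neurofilament subunits, Nefm, the medium chain, had 4.09, 3.59 and 4.26 CPM in the knockout libraries, against 24.4, 26.0 and 24.4 CPM in the wild-type libraries. The groups lay far apart, with little spread within either. Its log2 fold change was -2.38 (SE 0.114), and only 21 of the 12435 tested genes, itself included, had one as low. What was left in knockout cells was 16.1% of the level in wild-type cells (12.8% to 20.1% as the exact 95% interval, from 89 reads in knockout and 767 in wild type; like all such intervals here it covers counting error only). Because the added pseudocount pulls low values together, the plain log2 ratio of the read shares was larger, at -2.63.

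Nefl, the light chain on which the other chains assemble, had 18.3, 19.7 and 19.7 CPM in the knockout libraries, against 55.9, 57.7 and 60.4 CPM in the wild-type libraries. Its log2 fold change was -1.55 (SE 0.0696). This left 33.2% of the wild-type amount (29.8% to 36.9% as the exact 95% interval, from 425 knockout and 1781 wild-type reads), so Nefm and Nefl differed in how much was kept by more than these intervals.

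Nefh, the heavy chain, moved far less, with 28.9, 27.4 and 30.3 CPM in the knockout libraries and 31.8, 33.5 and 39.6 CPM in the wild-type libraries. The gap between the groups, from 30.3 to 31.8 CPM, was smaller than the spread among the wild-type libraries. Its log2 fold change was -0.26 (SE 0.079), and 83.5% was kept (exact 95% interval 75.6% to 92.2%). The value rests in part on single libraries: the log2 fold change was -0.23 without knockout replicate 2 and -0.17 without wild-type replicate 3, and in neither case was Nefh among the called genes.

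Ina, alpha-internexin, had 5.41, 4.96 and 6.33 CPM in the knockout libraries and 6.70, 6.20 and 6.07 CPM in the wild-type libraries. The ranges overlapped, and the log2 fold change was -0.16 (SE 0.14). With 125 and 195 reads, the exact 95% interval of the level kept ran from 70.6% to 112%, so a level kept below 70.6% lies outside it and a smaller loss was not detectable at this depth.

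The 4 subunits thus differed in how much of each was left, and their mix was not the same in the groups. To compare genes, CPM was divided by the length in kilobases of the principal GENCODE transcript. On that scale the summed level of the 4 subunits was 15.5, 15.3 and 16.6 CPM per kb in the knockout libraries, against 33.9, 35.2 and 37.0 CPM per kb in the wild-type libraries. Nefh made up 46.5%, 44.8% and 45.6% of this sum in the knockout libraries, against 23.5%, 23.9% and 26.8% in the wild-type libraries. Nefl made up 34.9%, 38.1% and 35.0% in knockout, against 48.8%, 48.6% and 48.3% in wild type. For Nefm the shares were 7.89%, 7.05% and 7.68% in knockout, against 21.6%, 22.1% and 19.8% in wild type. In every knockout library the heavy chain was therefore the largest part of the mix, and in every wild-type library it was the light chain. Nefm reads were 22.3%, 18.3% and 21.6% of Nefl reads in the knockout libraries, against 43.7%, 45.0% and 40.4% in the wild-type libraries.

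**Figure D2:**
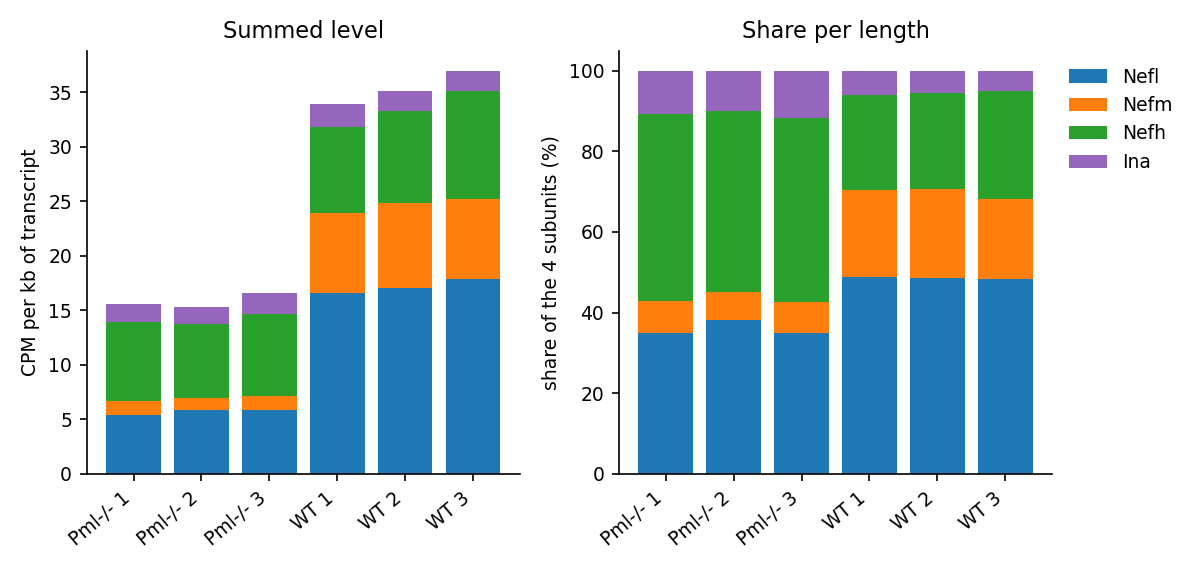
Neurofilament subunits in each library, the 3 Pml-/- libraries on the left and the 3 wild-type (WT) libraries on the right: summed level in CPM per kb of transcript (left panel) and the share of each subunit in that sum in percent (right panel). The sums lie between 15.3 and 16.6 in knockout and between 33.9 and 37.0 in wild type, and the share of Nefh is higher in every knockout library.

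Nefl and Nefm are neighbours on chromosome 14 (mm10). In the deposited table Nefl spans 68083489 to 68089064 and Nefm 68119545 to 68131371, a gap of 30.5 kb, and GENCODE M21 places them on opposite strands. Among the other 3 tested genes whose starts lie within 500 kb of Nefl, none was called lower by limma, nor at an unadjusted p under 0.05. Dock5, a regulator of Rac signaling, rose to 68.4 CPM in knockout cells, against 57.0 CPM in wild-type cells (log2 fold change 0.26, SE 0.0555, limma adjusted p = 0.00171). Cdca2 and Kctd9 had log2 fold changes of -0.10 and -0.07 and did not pass the test. This window was chosen after the values were seen. GENCODE M21 also holds a Nefm transcript model that reaches across Nefl, and A230070E04Rik, which shares the deposited Nefm locus, had 0.132, 0.171 and 0.575 CPM in knockout and 0.905, 0.678 and 1.17 CPM in wild type. Since no source used here says whether counting used strand, reads from such overlaps cannot be told apart from those of Nefl and Nefm.

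**Figure D3:**
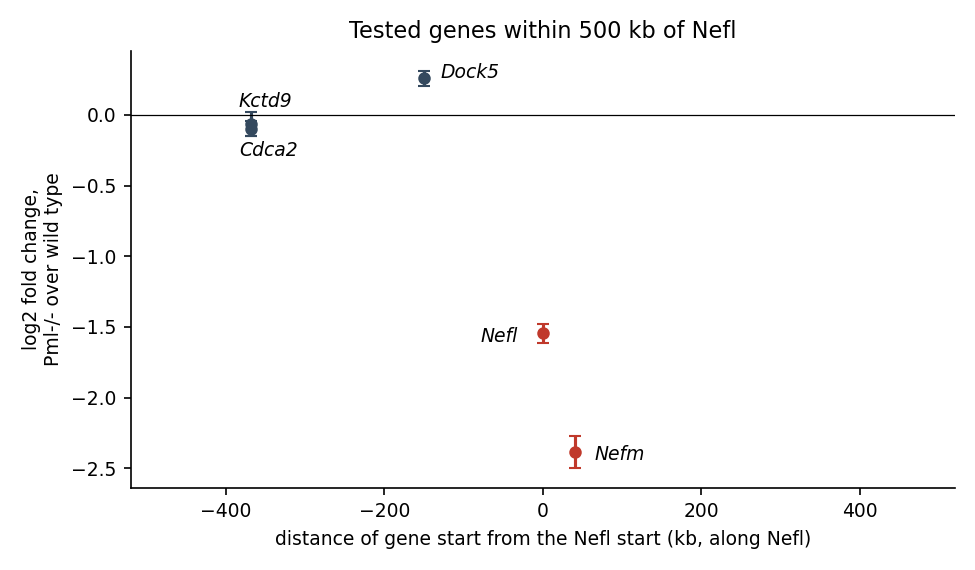
Log2 fold change of Pml-/- over wild type (vertical axis, bars are SE) of the tested genes within 500 kb of the Nefl start, by the distance of their starts in kb (horizontal axis); Nefl and Nefm in red, others in dark blue. Nefl at -1.55 and Nefm at -2.38 stand below the other 3 genes, which lie between -0.10 and 0.26.

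The other genes of the set lie apart: Nefh on chromosome 11, Ina on 19, Nes on 3, Vim and Pax6 on 2, and Sox1 and Tubb3 on 8. On chromosome 8, 90 of 641 tested genes were called lower and 17 higher. The share called lower was above the 7.49% of all tested genes, and the share called higher was below their 6.54%. Whether the lower levels of Sox1 and Tubb3 belong to a difference of the whole chromosome or of the line was not tested. Within 500 kb of Tubb3, 2 of 19 tested genes were called lower, and within 500 kb of Sox1, 1 of 3, the phospholipid flippase gene Atp11a, was called higher. Around Vim 1 of 4 and around Nes 2 of 24 were called lower. In the deposited table Nefh shares its locus with Ap1b1 and Ina shares its own with Nt5c2; neither neighbour passed the test, with log2 fold changes of -0.01 and -0.05.

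Of the precursor filaments, Nes, which encodes nestin, had 16.9, 14.5 and 15.0 CPM in the knockout libraries, against 29.5, 25.8 and 31.6 CPM in the wild-type libraries. Its log2 fold change was -0.86 (SE 0.0918), and 53.6% was kept (exact 95% interval 47.2% to 60.8%, from 343 and 889 reads). Vim, the partner with which nestin assembles, was the most abundant of the 9 genes, with 301, 269.9 and 271 CPM in the knockout libraries and 401, 386 and 372 CPM in the wild-type libraries. Its log2 fold change was -0.46 (SE 0.0375), with 72.6% kept (exact 95% interval 70.4% to 74.9%, from 6218 and 11911 reads). Both genes were lower without overlap, and the share of Vim that was kept exceeded that of Nes by more than the counting intervals.

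Sox1, the neural plate factor, had 3.30, 2.05 and 2.88 CPM in the knockout libraries and 6.07, 5.52 and 6.39 CPM in the wild-type libraries. The log2 fold change was -0.91 (SE 0.162), and 46.9% was kept (exact 95% interval 34.6% to 62.8%, from 62 and 184 reads). Its groups did not overlap, but its interval was the widest among the 7 lower genes because it had the fewest reads. Pax6 had 3, 0 and 1 reads in the knockout libraries and 1, 2 and 0 reads in the wild-type libraries. At 4 against 3 reads, the exact 95% interval of the knockout level ran from 31.4% to 1266% of the wild-type level, so a difference was not detectable at this depth.

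Tubb3, the neuronal tubulin gene, had 76.5, 71.3 and 74.7 CPM in the knockout libraries, against 111, 103 and 100 CPM in the wild-type libraries. The log2 fold change was -0.49 (SE 0.0492), and 70.9% was kept (exact 95% interval 66.8% to 75.3%, from 1646 and 3227 reads). In this and all other genes described here, fewer cells that carry the transcript and less RNA per cell cannot be told apart in bulk RNA.

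The authors' deposited table gives log2 fold changes from edgeR of -2.64 for Nefm, -1.60 for Nefl, -1.10 for Sox1 and -0.91 for Nes. The authors' edgeR FDR was 0.0229 for Nefh and 0.961 for Ina. These values come from the same 6 libraries and the same comparison, so they are no separate support for the differences. Within groups, the reads of Nefl, Nefm, Ina and Sox1 scattered about as much as counting alone gives. Vim scattered more, with a chi-square against counting error of 15.7 in knockout and 11.6 in wild type (3 libraries each), where Nefm had 0.395 and 0.651. Nefh and Nes also scattered more among the wild-type libraries, with 9.68 and 6.09.

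Per length, the order of the levels was Vim, Tubb3, Nefh, Nefl, Nes, Ina, Nefm, Sox1 and Pax6 in knockout cells, with means of 128, 39.7, 7.22, 5.69, 2.52, 1.72, 1.19, 0.567 and 0.0593 CPM per kb. In wild-type cells the order was Vim, Tubb3, Nefl, Nefh, Nefm, Nes, Ina, Sox1 and Pax6, with means of 176, 56.0, 17.2, 8.76, 7.48, 4.73, 1.95, 1.24 and 0.033 CPM per kb. The ranges of neighbours in either order did not overlap. The narrowest step was in wild type, where Nefh lay between 7.96 and 9.92 and Nefm between 7.32 and 7.79 CPM per kb. Nefm ranked below Nes and Ina in knockout cells and above both in wild-type cells, and Nefh and Nefl also changed places.

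**Figure D4:**
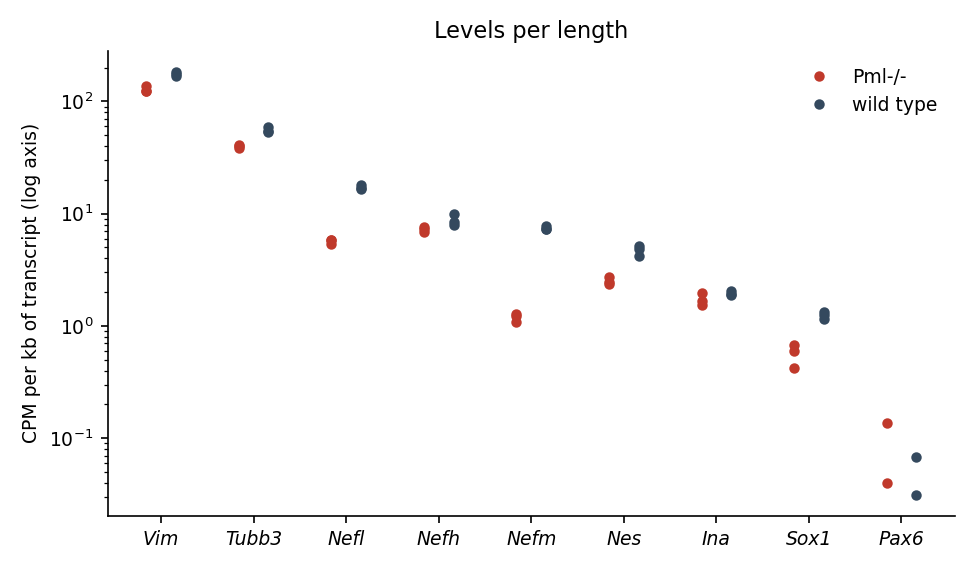
Level per length of the 9 genes in CPM per kb of transcript (vertical log axis), ordered by the wild-type mean; red points are Pml-/- libraries and dark blue points wild-type libraries, and libraries at 0 (Pax6 only) are not drawn. Vim stands highest in both groups, at 128 and 176 CPM per kb, and Nefm shows the widest gap between the groups.

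To name genes with a like pattern, each gene's log2(CPM + 1) was set against its own wild-type mean. The root mean square difference over the 6 libraries was taken from each of the 6 set genes averaging at least 10 CPM. Genes with Gm-number, Rik or LOC symbols were left out of the search. The measure rests largely on the log2 fold change, and among so many genes near matches are bound to occur, so it tests no shared program. The gene nearest to Nes was Sox21, a transcription factor gene of neural precursors, at a difference of 0.0552; it had 4.48 CPM in knockout and 9.23 CPM in wild type. Nearest to Tubb3 was Vim, at 0.0416. For Nefl the nearest was Tmem40, at 0.123, and for Nefm it was Pnma5, an X-linked gene, at 0.105. Cdc14b, a phosphatase gene, was nearest to Nefh, at 0.0299, and Aqp3, a water channel gene, to Vim, at 0.0391.

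Other genes of the neural lineage, from lists that hold none of the 9 genes, were tested in the fit across all genes. Of 42 neural precursor genes, 17 had enough reads; 5 fell, 1 rose and 11 did not pass, with a median log2 fold change of -0.11 against 0.00463 over all tested genes. Sox21 fell most (log2 fold change -0.90, SE 0.137, limma adjusted p = 2.39e-05). Msi1, which encodes the RNA-binding protein Musashi, fell to 16.3 ± 1.79 CPM in knockout cells, against 28.5 ± 2.10 CPM in wild-type cells (log2 fold change -0.77, SE 0.091, limma adjusted p = 3.03e-07). Meis2 and Zic2, transcription factor genes, fell by 0.54 and 0.29 (log2), as did Msi2, by less; the call of Zic2 was lost with DESeq2. Many defining genes of the lineage were scarcely read: Emx2, Nkx6-1, Olig2 and Dbx1 had 0 reads in all libraries.

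Neuronal genes gave a like count, with 22 of 40 tested, of which 5 fell, 1 rose and 16 did not pass; their median was -0.04. Stmn2, which encodes a microtubule regulator of growth cones, and Uchl1, a neuronal ubiquitin hydrolase gene, each fell by 0.32. Mapt, the gene of the axonal microtubule protein tau, went the other way, with 12.8 ± 0.65 CPM in knockout cells and 8.13 ± 1.74 CPM in wild-type cells (log2 fold change 0.62, SE 0.128, limma adjusted p = 0.00117). Tubb2a and Tubb2b, which also fell, are tubulin genes with near-identical copies, so the split of reads between them is uncertain. Dcx, Snap25, Neurog2, Nhlh2 and Scg2 had 0 reads throughout.

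The remaining intermediate filament genes did not move one way. Of 22, 13 were tested; 2 fell, 2 rose and 9 did not pass, and the median was 0.13. Prph encodes peripherin, a further partner of the neurofilament chains; it fell to 2.08 ± 0.354 CPM in knockout cells, against 4.29 ± 0.581 CPM in wild-type cells (log2 fold change -0.78, SE 0.171, limma adjusted p = 0.00199). Lmna, the gene of the nuclear lamins A and C, fell by 0.57. Lmnb2, another lamin gene, rose by 0.16, and the keratin gene Krt42 rose by 0.47.

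Proteins that link, carry or turn over such filaments had a list of 20 genes, all tested. By limma 0 fell, 4 rose and 16 did not pass, with a median of 0.07; 1 were lower at an unadjusted p under 0.05. EdgeR called 1 lower and 4 higher, DESeq2 0 lower and 2 higher, and limma on TMM-rescaled CPM 1 lower and 3 higher. Dync1h1, the dynein heavy chain gene, rose to 340 ± 13.4 CPM in knockout cells, against 291 ± 18.9 CPM in wild-type cells (log2 fold change 0.23, SE 0.0386, limma adjusted p = 0.000119). Dst, which encodes the linker dystonin, rose by 0.23. The calls of Macf1 and Kif5b, at 0.15 and 0.10, were lost with DESeq2, with no filter on low values and on leaving out single libraries. That of Kif5b was also lost on TMM-rescaled CPM. The count was 2 without knockout replicate 1, without knockout replicate 3 and without wild-type replicate 2.

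REST, the repressor that holds neuronal genes low outside neurons, and its partners had 16 genes, all tested. Sin3b, Ctdsp1 and Hdac2 fell by 0.26, 0.26 and 0.13, Rcor2 rose by 0.15 and 12 did not pass; the median was -0.01. The call of Hdac2 was lost with DESeq2 and without knockout replicate 1 or wild-type replicate 2 or 3, and that of Rcor2 without knockout replicate 3. Rest itself had 131 ± 8.43 CPM in knockout cells and 120 ± 6.40 CPM in wild-type cells, with a log2 fold change of 0.12 (limma adjusted p = 0.0936).

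**Figure D5:**
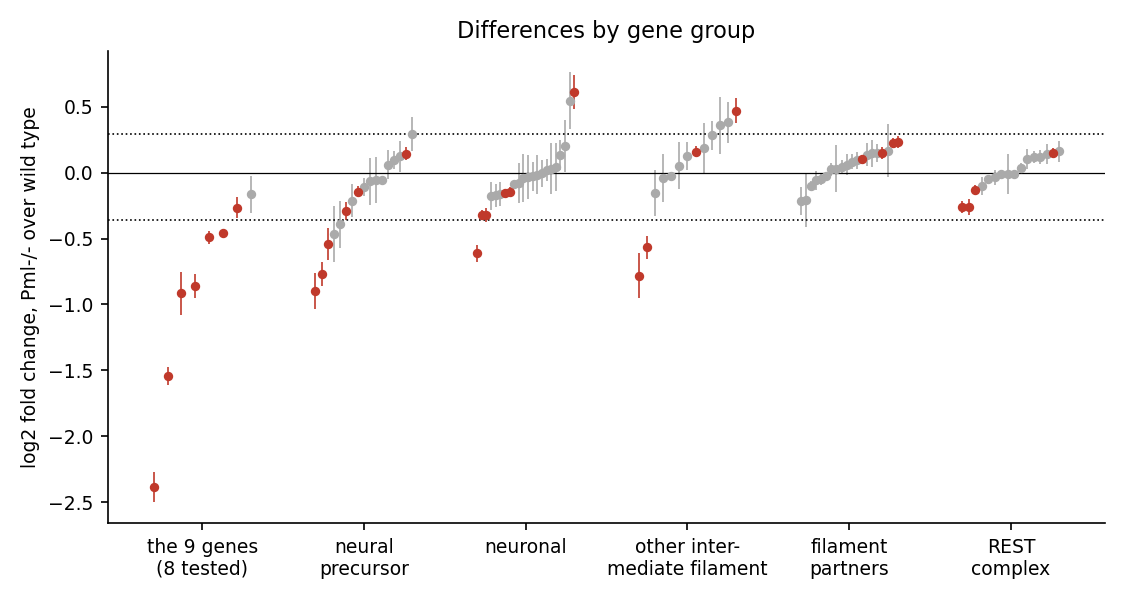
Log2 fold change of Pml-/- over wild type (vertical axis, bars are SE) for the tested genes of the set and of 5 gene lists, each ordered by its value; red points were called at a limma adjusted p under 0.05, and dotted lines mark the 5th and 95th percentiles of all tested genes, at -0.36 and 0.30. Nefm and Nefl lie lowest, and the called genes of the filament partner list lie above 0.

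Markers of other cell types that could carry Vim or the neurofilament genes ranged from 0 to the high levels of the matrix gene Fn1. Of 17 fibroblast markers, the source cells of feeder layers, 4 were tested: Fn1 and Pdgfrb rose by 0.30 and 0.39, and Thy1, a surface protein gene also found on neurons, fell by 0.95. Pdgfrb, a growth factor receptor gene, had a log2 fold change of 0.25 without knockout replicate 2 and was then not called, nor without wild-type replicate 3, with DESeq2 or with no filter on low values. Dcn, Postn, Twist2, Fap and S100a4 had 0 reads in all libraries, Col1a1 and Col1a2 stood below 1.4 CPM in every library, and the summed level of the list, nearly all of it Fn1, was 1058 to 1105 CPM in knockout and 853 to 939.6 CPM in wild type. Of 12 glial and neural crest markers, 1 of 6 tested fell, Aldh1l1, by 0.27, and S100b, Aqp4 and Olig2 were at 0. The call of Aldh1l1 was lost with DESeq2 and without knockout replicate 1 or 3 or wild-type replicate 1 or 2. Ngfr, the gene of the p75 neurotrophin receptor, made up most of the list's level, with 70.3 ± 3.32 CPM in knockout cells and 70.0 ± 1.57 CPM in wild-type cells; the sums were 109 to 116 CPM in knockout and 117 to 121 CPM in wild type. Of 12 primitive endoderm markers, 2 of 7 tested rose, the laminin genes Lamb1 and Lamc1, by 0.60 and 0.23, and 5 did not pass. All 12 had reads, but Gata4, Gata6, Sox17, Sox7 and Foxa2 had too few to be tested. The highest of these was Gata4, with means of 1.20 CPM in knockout and 0.86 CPM in wild type. The sums, most of them Lamc1 and Sparc, were 865 to 900.2 CPM in knockout and 771 to 795 CPM in wild type. The part of these cell types in the lower levels of the 9 genes was not tested.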

How the data were processed

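Polyadenylated RNA of 3 Pml-/- and 3 wild-type E14 libraries was measured. Per the labels' protocols, libraries were made with an Illumina TruSeq RNA kit; the submitters' processing notes name cutadapt, TopHat, edgeR and the mm10 build, with no order or versions. Which counter, annotation and strand setting were used is not given in the sources used here. Values of each library were deposited by the authors as CPM. The file headers also name the authors' own comparison: deposited log2 fold change, mean log2 CPM, p-value and FDR. Columns were tied to samples by replicate number and by KO or, for wild type, the name of the parental line E14.

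In every library 100% of the deposited CPM values were whole reads within 0.01 of a read. Of 25833 rows, 1097 without values (782 of them without a name) and 315 repeats were removed, leaving 24421 genes; 27 symbols had become dates. Tests used limma 3.58.1 (trend option) and took log2(CPM + 1) of genes kept by edgeR's filterByExpr, with no covariate and Benjamini-Hochberg adjustment over all 12435; calls needed an adjusted p under 0.05. As alternatives, edgeR 4.0.16 (quasi-likelihood, on the recovered reads, 1820 genes called) and DESeq2 1.42.0 were run, with other pseudocounts, no filter, TMM scaling, a replicate block and each library left out. In the smallest library 3 reads equal 0.513 CPM; intervals are exact binomial (Clopper-Pearson) and cover counting error only, since no source names molecular identifiers. Between libraries of a group chi-square over degrees of freedom came to 1.33 to 1.64, above sampling noise. All 6 were counted, though this scatter does not show whether the libraries came from separate cultures.

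The members and lists were chosen with earlier results of these data known. From each list the text names at most 4 called genes, those that changed most (2 abundant genes for a list without calls). Rest, Ngfr, Msi2, Tubb2a, Tubb2b, Col1a1, Col1a2, Sparc, Gata4, Gata6, Sox17, Sox7 and Foxa2 were named after their values were seen. So were genes at 0 and genes near the members. Transcript lengths are from GENCODE M21. Protein sequences were not used here, and some genes that the naming rule covers are not reported here.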

Additional observations from a re-analysis of the deposited data

How the results depend on the processing

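The log2 fold changes of Nefl, Nefm, Nefh, Ina, Nes, Vim, Sox1 and Tubb3 kept their direction under all 13 alternatives. Nefm lay between -2.64 and -2.17 and Nefl between -1.60 and -1.50. Sox1 lay between -1.11 and -0.76 and Nes between -0.94 and -0.80. Nefh was no longer among the called genes with DESeq2 (-0.27) and without the low-value filter (-0.26); with libraries left out it ranged from -0.33 to -0.17. With DESeq2, 796 genes were called in all, 3 of the neural precursor list and 2 filament partners. With no filter on low values 2 filament partners were called, and leaving out single libraries gave 2 to 4. Over all genes, leaving out a library gave 1146 (without wild-type replicate 2) to 1831 calls. Among the other named genes, 28 values lost their call and 362 kept it or stayed uncalled; no value changed sign. The cause was not tested. Pax6 was tested only with no filter.

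The groups share replicate numbers, and every library correlated best with its own number, but only weakly (correlations 0.0755, 0.0603 and 0.0136, each under 0.1). Such weak correlations do not settle whether the numbers pair the libraries, and the main fit took them as unpaired. With the replicate block 2337 genes were called, against 1745 in the main fit, and 7 of the 9 genes as before. Depth limits Pax6, Ina and Sox1 most, since they had the fewest reads.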
